A study of Mus musculus with 8 samples.

Results

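Hox genes encode homeodomain transcription factors that give body segments their identity along the head-to-tail axis, and in mammals they lie in the clusters *Hoxa*, *Hoxb*, *Hoxc* and *Hoxd*. Their order along each cluster follows the body axis, so that low-numbered genes act toward the head and high-numbered genes toward the tail. In cells that do not express them, Hox promoters are usually held silent by Polycomb proteins on CpG islands (stretches rich in the dinucleotide CG) that stay free of DNA methylation. Expression was not measured here.

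The Hox promoter sites were all cytosines that the deposited promoter table assigned to a gene named *Hoxa*, *Hoxb*, *Hoxc* or *Hoxd* followed by a number. They were 415 of 203645 cytosines and belonged to 15 of 9224 genes, out of 39 Hox cluster genes listed by RefSeq for GRCm38. Germline stem (GS) cells are spermatogonia kept in culture that retain stem cell activity. The 8 wild-type B6 lines came from CD9-sorted spermatogonia of mature testes and were untreated. They comprised 4 control-F1 lines (29, 37, 44 and 45) from mice born after natural mating and 4 ICSI-F1 lines (11, 17, 20 and 21) from mice born after intracytoplasmic sperm injection (ICSI), the placing of 1 sperm into an egg by pipette. Ages of the mice are not given in the labels. Each line was measured by 1 library, so replicates are culture lines. The line numbers are those the study gave to individual F1 mice, and p-values measure the spread between these lines. The question was whether methylation in the germline of mice born by ICSI differed from that of naturally conceived mice.

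Reduced representation bisulfite sequencing (RRBS) cuts DNA with MspI, which recognises CCGG, and reads the fragments after bisulfite has converted unmethylated cytosines. The level of a site is the percentage of reads that still hold a cytosine. The median coverage of a Hox site, with the authors' scaling undone, ranged among control-F1 lines from 37 to 76 reads and among ICSI-F1 lines from 54 to 81, and no Hox site had fewer than 10 reads in any line. Reads carried no molecular identifiers, so limits given for a level of 0 cover counting error only. By the wording of their labels the lines fall into 2 library sets, each with 2 lines of either group: set 1 holds lines 29, 37, 11 and 17, and set 2 holds lines 44, 45, 20 and 21. As a check of the cell type, 12 of 19 listed germline genes that are methylated in somatic cells were in the table, and their mean level outside cut sites was between 1.17% and 6.02% in every line. None of these 12 promoters reached 50% outside cut sites.

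The 415 sites lay at 257 CpGs, 158 of them covered on both strands, at distances of 1 to 998 bp upstream of the listed gene start. The CpG annotation of the deposited table placed 300 sites in islands, 53 in shores (the flanks of islands), 4 in a shelf (the *Hoxb3* sites) and 58 outside all of these (the *Hoxd10* sites). Against GENCODE M21, no site lay inside a transcript of its own Hox gene. All 67 *Hoxa11* sites lay in exons of the antisense transcript *Hoxa11os*, the 4 *Hoxa2* sites in an exon of *Hoxaas2*, 33 of the 55 *Hoxd1* sites in an exon or intron of *Haglr*, and the 58 *Hoxd10* sites in an intron of *Gm28309*.

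Stretches that carry the main results are shown from GRCm38 (mm10), 5′ to 3′ on the strand of the gene. The first pair contrasts the methylated *Hoxb3* fragment (chr11:96323271-96323325, plus strand) with the least methylated promoter, *Hoxa13* (chr6:52260881-52261105, minus strand), with measured CpGs in capitals.
Hoxb3: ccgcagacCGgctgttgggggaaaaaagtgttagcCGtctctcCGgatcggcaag
Hoxa13: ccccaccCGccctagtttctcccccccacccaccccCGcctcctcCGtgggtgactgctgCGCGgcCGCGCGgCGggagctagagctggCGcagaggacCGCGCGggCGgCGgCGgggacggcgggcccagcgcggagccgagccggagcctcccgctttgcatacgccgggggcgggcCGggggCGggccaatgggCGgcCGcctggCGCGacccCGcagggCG
The second pair shows MspI cut sites in capitals, 14 bp apart in *Hoxa11* (chr6:52246385-52246416, minus strand) and 71 bp apart in *Hoxd10* (chr2:74691065-74691155, plus strand).
Hoxa11: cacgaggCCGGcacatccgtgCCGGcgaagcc
Hoxd10: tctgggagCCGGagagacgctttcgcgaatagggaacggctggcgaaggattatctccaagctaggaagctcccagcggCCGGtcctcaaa
The last stretch is from *Hoxc10* (chr15:102965805-102965913, plus strand), with measured CpGs in capitals. It runs from the measured CpG farthest from the start to the CpG with the largest decrease of this promoter in ICSI-F1 lines.
Hoxc10: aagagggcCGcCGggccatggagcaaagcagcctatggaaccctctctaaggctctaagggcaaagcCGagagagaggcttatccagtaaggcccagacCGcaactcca

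Hox promoters were mostly unmethylated in GS cells, and *Hoxb3* was the exception. The mean level over the 8 lines was under 10% at 361 of 415 Hox sites (87%), compared with 88% of all promoter sites and 91.8% of island sites. It was 10% or more at 54 Hox sites (12.0% of all promoter sites reached 10%), of which 14 lay between 10% and 20%, 23 between 20% and 50% and 17 at 50% or more. Of these 54 sites, 49 were cytosines inside an MspI cut site. The 91 Hox cut-site cytosines had a median level of 11.9%, against 2.60% at the other 324 Hox cytosines. Outside cut sites, 319 of 324 sites were under 10%, 3 lay between 10% and 20%, and the only 2 at 50% or more were the strands of 1 CpG of *Hoxb3*. The *Hoxb3* cut-site cytosines were high as well. For this reason many results below are given both with all sites and outside cut sites, a choice made after the levels were seen. Group calls of single sites are given with all sites, and levels by position and distance only outside cut sites.

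**Figure D1:**
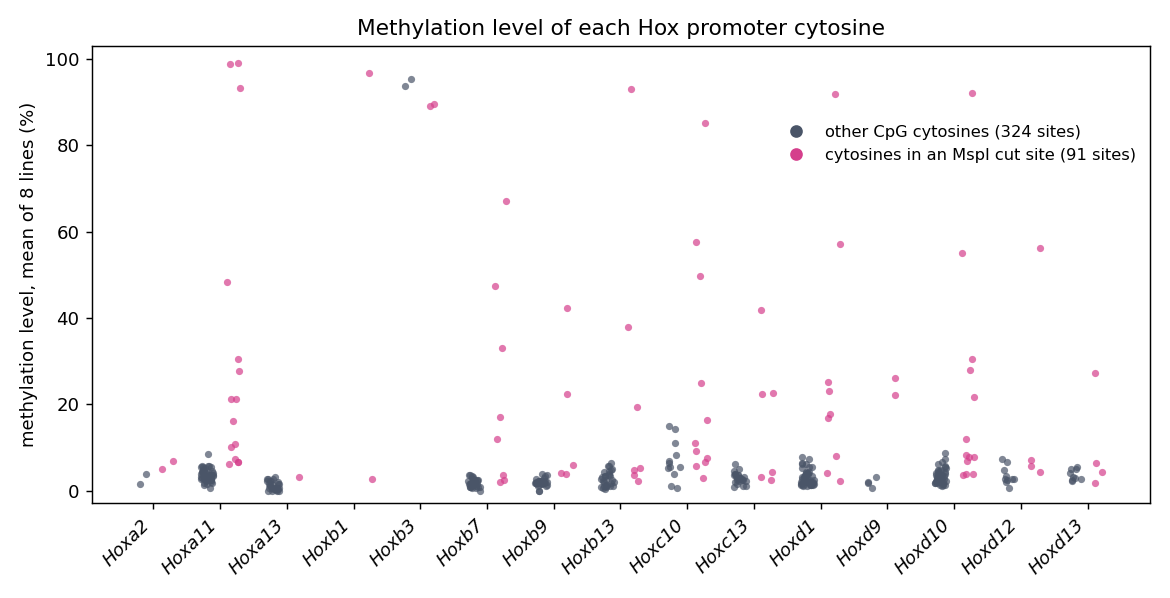
Methylation level of each Hox promoter cytosine (percent, mean of 8 lines) by promoter, with the 91 cut-site cytosines in pink and the other 324 cytosines in grey. Grey points lie under 15% in every promoter apart from *Hoxb3*, whose 2 grey points lie at 93.6% and 95.3%, while pink points reach 99.0%.

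The high levels at cut-site cytosines depended on the strand. At the 28 Hox CpGs inside a cut site that were covered on both strands, the strands differed by a median of 35.1 percentage points and by more than 50 points at 9. At the 130 Hox CpGs outside cut sites the median difference was 1.29 points and the largest 5.78. Over all promoters, the strands differed by more than 10 points at 61.9% of 10917 cut-site CpGs and at 0.149% of 69822 other CpGs, so the pattern was not particular to Hox promoters. In *Hoxa11*, the cut-site cytosines at chr6:52246393 (plus strand) and chr6:52246408 (minus strand) had 99.0% and 98.7%, while the plus strand of the second CpG had 10.1% and the 3 other cytosines of the printed stretch had 2.70% to 4.03%. In *Hoxd10*, the plus strand of the downstream cut site (chr2:74691145) had 92.1% and its minus strand 8.28%. The 12 cytosines between the 2 *Hoxd10* cut sites had 2.31% to 8.79%. Besides these, *Hoxb1* and *Hoxb3*, the 10 highest sites included *Hoxa11* chr6:52246577 (93.2%, other strand 6.71%), *Hoxb13* chr11:96193584 (92.9%, other strand 2.18%) and *Hoxd1* chr2:74762697 (91.9%, other strand 7.99%), all on the minus strand. In *Hoxb1*, a head-end gene of the *Hoxb* cluster for which only 1 CpG was measured, the minus strand had 96.7% and the plus strand 2.74%, so its promoter mean of 49.7% was an average of these.

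The level of a cut-site cytosine followed the distance to the next cut site on the same strand. Distances were counted on the strand of the cytosine, in the 5′ and the 3′ direction. Of 49 Hox cut-site cytosines with the next cut site 21 to 150 bp away on the 5′ side, 44 had 10% or more (median 27.3%). Of the 42 others, 5 did, and 2 of those were the *Hoxb3* cytosines. Without *Hoxb3* these others had a median of 4.32% and did not exceed 12%. Among the 49, the 5 cytosines whose next cut site on the 3′ side was up to 20 bp or over 300 bp away had 92.1% to 99.0%. The 13 with a 3′ distance of 151 to 300 bp had a median of 47.4%, and the 31 with a 3′ distance of 21 to 150 bp a median of 22.1%. Over all 34804 promoter cut-site cytosines, the medians of these classes were 94.7%, 51.0% and 24.4%, and 4.8% where the 5′ distance was outside 21 to 150 bp. What set these levels was not tested. At *Hoxb3* the next cut sites on the 5′ side were 981 and 2165 bp away, and the 2 cytosines that are not in a cut site were high on both strands.

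**Figure D2:**
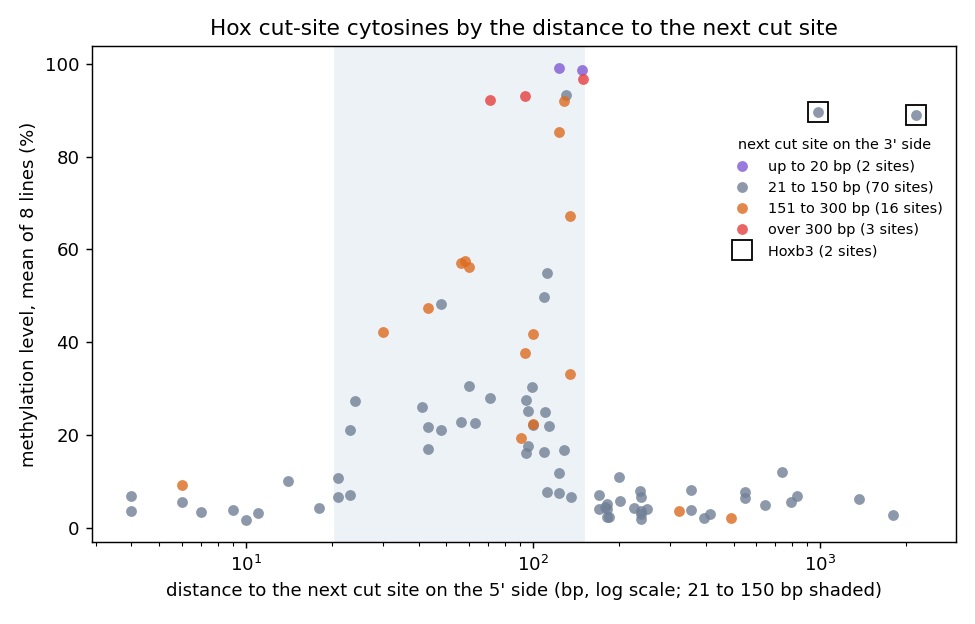
Level of each of the 91 Hox cut-site cytosines (percent, mean of 8 lines) against the distance to the next cut site on the 5′ side (bp, log scale), coloured by the distance on the 3′ side. Points in the shaded range of 21 to 150 bp reach 99.0%, and outside it the points stay at or under 12% apart from the 2 *Hoxb3* cytosines in squares.

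*Hoxb3*, a head-end gene of the *Hoxb* cluster with a role in hindbrain patterning, was the methylated Hox promoter. Its CpG outside the cut sites had 92.0%, 92.4%, 93.5% and 92.7% in control-F1 lines 29, 37, 44 and 45. In ICSI-F1 lines 11, 17, 20 and 21 it had 97.2%, 95.2%, 96.1% and 96.3%. All 4 ICSI-F1 lines lay above all 4 control-F1 lines, by a mean of 3.55 percentage points. Over both strands these levels rest on only 58 to 133 reads in the control-F1 lines and 60 to 151 in the ICSI-F1 lines. The counting error of single lines at this depth was not assessed. The exact two-sided permutation test gave p = 0.0286, the smallest that 70 arrangements allow, and limma's adjusted p over 8480 promoters with sites outside cut sites was 1. It was the 1 of 14 Hox promoters whose groups did not overlap outside cut sites, while 1.49% of all such promoters did not overlap. It was also the 1 of 14 at an unadjusted p under 0.05 by limma, which 2.37% of all such promoters reached. With its cut-site cytosines included, the promoter had 89.9% ± 3.56 in control-F1 lines and 93.8% ± 1.44 in ICSI-F1 lines (SD, n = 4), the groups overlapped, and the exact permutation p was 0.0571. Outside cut sites the difference was 3.99 points within library set 1 and 3.11 points within library set 2. Each strand of the CpG alone overlapped between the groups: the plus strand had 87.9% to 100% among control-F1 lines and 94.4% to 100% among ICSI-F1 lines, the minus strand 85.5% to 96.1% and 90.3% to 100%.

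The *Hoxb3* gene lies at chr11:96323326-96347930 on the plus strand. The measured *Hoxb3* sites lay 11 to 47 bp upstream of the listed start (chr11:96323326), which is the start of 1 of 4 *Hoxb3* transcripts in GENCODE M21. That transcript has support level 5, the lowest grade, and the transcript with support level 1 starts 20443 bp downstream, where no site was measured. Among the other 14 genes the listed start was that of a transcript with support level 1 for 13, and for *Hoxa13* such a start lay 78 bp away. The 300 bases upstream of the *Hoxb3* start held 9 CpGs at a GC content of 41.3%. The other Hox promoters held 6 to 41 CpGs (median 16.5) at a GC content of 47.3% to 78.3%, and all 9224 promoters had medians of 18 CpGs and 59.3%. Of all promoters with sites outside cut sites, 502 of 8480 (5.92%) had a mean level of 80% or more. The promoter of *Hoxb3os*, an antisense transcript of the same locus, had a mean level of 2.27% outside cut sites.

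**Figure D3:**
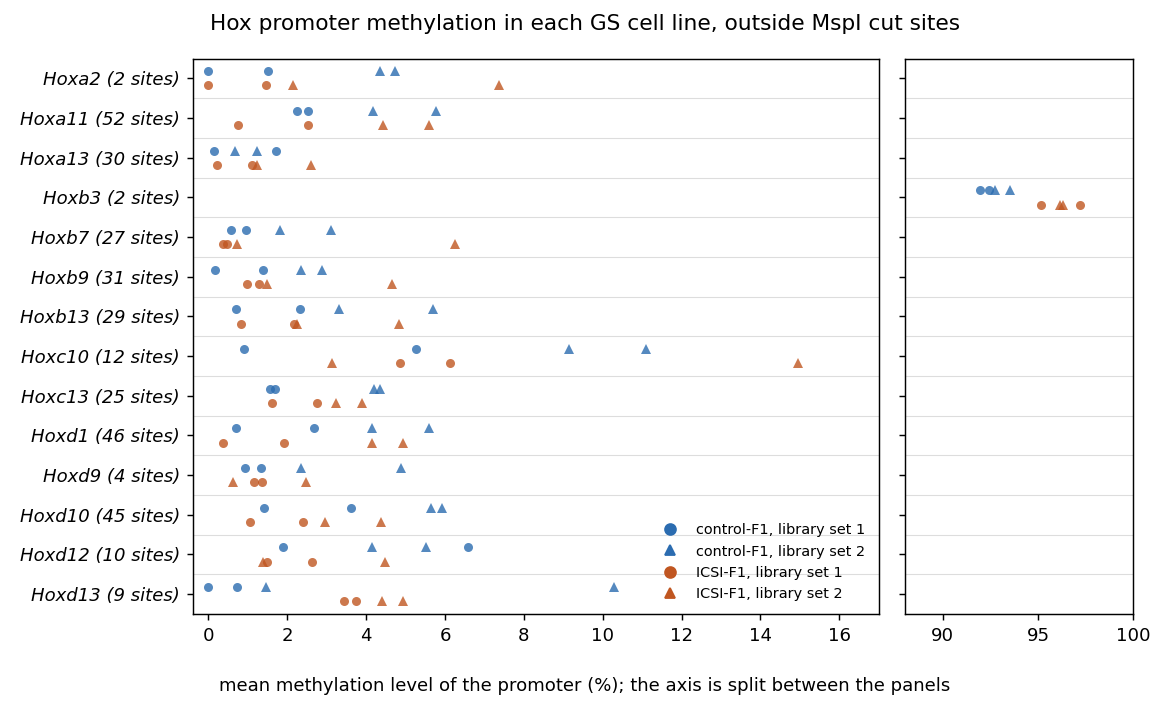
Mean methylation level of 14 Hox promoters outside MspI cut sites in each GS cell line (percent), by group (colour) and library set (symbol), with the axis split between the panels; *Hoxb1* had no such site. The *Hoxb3* points lie at 92.0% to 97.2%, and the other 13 promoters between 0 and 15.0%.

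Outside cut sites, the other 13 Hox promoters had mean levels of 1.12% (*Hoxa13*) to 6.94% (*Hoxc10*) over the 8 lines, with a median of 2.92%. Between 2.69% and 3.62% lay, in rising order, *Hoxa2*, *Hoxb13*, *Hoxc13*, *Hoxd1*, *Hoxd10*, *Hoxa11*, *Hoxd12* and *Hoxd13*, neighbours in level whose lines overlapped. The median over all promoters was 2.29%. By position along the cluster and without *Hoxb3*, the sites of paralogues 1 to 3 had 3.04% ± 1.94, those of paralogues 7 to 9 had 1.85% ± 1.19 and those of paralogues 10 to 13 had 3.18% ± 1.37 (mean ± SD over 8 lines). The ranges of the lines overlapped between these classes, and no paralogue 4, 5 or 6 gene was in the table. Few genes carried the first 2 classes: 46 *Hoxd1* and 2 *Hoxa2* sites, then 27 *Hoxb7*, 31 *Hoxb9* and 4 *Hoxd9* sites. Position therefore cannot be told apart from single promoters or from cluster here. Levels were higher far from the start: 2.18% ± 1.38 within 100 bp, 2.35% ± 1.28 at 101 to 200 bp, 2.76% ± 1.5 at 201 to 500 bp and 4.32% ± 1.94 at 501 to 1000 bp, or 3.75% ± 1.70 in the last class without *Hoxc10*. These classes held different promoters. *Hoxa13* (1.12%), *Hoxb7* (1.78%), *Hoxd9* (1.89%) and *Hoxb9* (1.90%) had no site beyond 500 bp, so distance cannot be told apart from promoter.

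In the *Hoxa* cluster, *Hoxa13*, which patterns the distal limb and the genital tract, had the lowest level of all 15 promoters (gene at chr6:52258853-52260880, minus strand). Its 30 cytosines outside cut sites had 0.135%, 1.71%, 0.680% and 1.24% in control-F1 lines 29, 37, 44 and 45, and 1.1%, 0.222%, 2.59% and 1.24% in ICSI-F1 lines 11, 17, 20 and 21. No line stood apart and the groups overlapped. *Hoxa11*, which acts in the forearm and the uterus (chr6:52242106-52245810, minus strand), had the most sites, and its 52 cytosines outside cut sites had 2.52%, 2.24%, 4.17% and 5.78% in the control-F1 lines and 0.737%, 2.53%, 5.61% and 4.43% in the ICSI-F1 lines, in the same order. Every set 2 line lay above every set 1 line. Its mean over all 67 sites was 10.2%, since its 15 cut-site cytosines averaged 33.5%. *Hoxa2*, a head-end gene of the second pharyngeal arch, had 2 cytosines outside cut sites with 1.5%, 0%, 4.34% and 4.73% in the control-F1 lines and 1.47%, 0%, 7.37% and 2.15% in the ICSI-F1 lines. The 0% values rest on 76 reads in line 37 and 100 reads in line 17, which allow levels of up to 3.95% and 3.0%.

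In the *Hoxb* cluster without *Hoxb3*, the level outside cut sites had a control-F1 mean of 2.11% ± 1.42 and an ICSI-F1 mean of 2.19% ± 1.48 (SD, n = 4). *Hoxb9*, a trunk gene, had the lowest promoter mean of this cluster over all sites, 3.81%. Its 31 cytosines outside cut sites had 0.170%, 1.39%, 2.88% and 2.34% in the control-F1 lines and 0.972%, 1.28%, 1.48% and 4.65% in the ICSI-F1 lines, the last being line 21. *Hoxb7*, which also acts in the trunk, had 0.367% to 3.10% in 7 lines and 6.26% in ICSI-F1 line 20. The excess of line 20 came from 8 minus-strand cytosines 105 to 218 bp upstream of the start, which had 16.7% to 21.2% at 16 to 31 reads each, while the other 7 lines averaged 0 to 1.79% there. *Hoxb9* in line 21 showed a similar run, with 8.0% to 14.0% at 12 minus-strand cytosines 106 to 272 bp upstream, while 10 of the 12 plus-strand cytosines of the same stretch had 0%. Each of these runs was seen in 1 line. In the *Hoxb7* stretch no plus-strand cytosine was measured, so its strands could not be compared. *Hoxb13*, which acts at the tail end and in the prostate, had 2.77% over 29 cytosines outside cut sites. *Hoxb1* had 50%, 48.4%, 52.1% and 51.0% in the control-F1 lines and 50%, 52.9%, 49.6% and 43.8% in the ICSI-F1 lines, over both strands of its cut site.

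In the *Hoxc* cluster, *Hoxc10*, which acts in the lumbar spinal cord and the hind limb (chr15:102966796-102971893, plus strand), had the widest spread among lines. Its 12 cytosines outside cut sites had 5.27%, 0.909%, 11.1% and 9.13% in the control-F1 lines and 4.87%, 6.12%, 3.12% and 15.0% in the ICSI-F1 lines. ICSI-F1 line 21 was the highest and control-F1 line 37 the lowest, and the groups overlapped. The spread lay in the shore, where the 10 shore cytosines ranged from 1.09% to 17.9% among lines. Of the 6 cytosines of the printed stretch outside its cut site, the one at chr15:102965905 (minus strand) had 0%, 0%, 31.8% and 50% in the control-F1 lines and 4.29%, 0%, 10.0% and 22.7% in the ICSI-F1 lines, on 22 to 85 scaled reads. This cytosine carried the second largest decrease of any Hox site, by a group mean of 11.2 points, within overlapping groups. *Hoxc13*, known for its role in hair and nails, had the lower mean of the cluster over all sites, 5.46%. Its 25 cytosines outside cut sites had 1.70%, 1.55%, 4.35% and 4.20% in the control-F1 lines and 1.61%, 2.76%, 3.91% and 3.24% in the ICSI-F1 lines, with every set 2 line above every set 1 line.

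In the *Hoxd* cluster, *Hoxd9*, which acts in the trunk and limbs, had the highest mean over all sites (9.29% at 6 sites) and *Hoxd13* the lowest (5.58% at 13 sites). Outside cut sites, the 4 *Hoxd9* cytosines had 0.938%, 1.33%, 4.88% and 2.34% in the control-F1 lines and 1.35%, 1.15%, 2.48% and 0.625% in the ICSI-F1 lines. *Hoxd13*, which patterns the digits, had 0.733%, 0%, 1.46% and 10.3% in the control-F1 lines at 9 cytosines, and 3.75%, 3.43%, 4.40% and 4.94% in the ICSI-F1 lines. The 0% of line 37 rests on 128 counts summed over the 9 cytosines. Several of these lie within a few bases on 1 strand, so the same read can be counted more than once. The limit of 2.34% from 128 counts is therefore too low. Line 45 stood apart from the other control-F1 lines, with 6.00% to 23.0% at each of the 9 cytosines. *Hoxd10*, which acts in the hind limb and its motor neurons (chr2:74691924-74695105, plus strand), had 1.40%, 3.62%, 5.92% and 5.64% in the control-F1 lines and 1.06%, 2.41%, 2.96% and 4.36% in the ICSI-F1 lines at 45 cytosines. *Hoxd10* was annotated outside islands, shores and shelves. Its mean of 3.42% outside cut sites lay below the 14.0% of the other promoter sites in that class, and was lower in every line. The 300 bases upstream of its start nonetheless held 23 CpGs at a GC content of 64.0%, above the medians of all promoters (18 CpGs and 59.3%). *Hoxd12*, which also patterns the digits, had 1.89%, 6.57%, 5.51% and 4.14% in the control-F1 lines and 1.49%, 2.64%, 4.47% and 1.38% in the ICSI-F1 lines at 10 cytosines. *Hoxd1*, the head-end member, had 3.06% over 46 cytosines, with every set 2 line (4.14% to 5.6%) above every set 1 line (0.364% to 2.67%).

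The mean level of the Hox sites did not separate ICSI-F1 from control-F1 GS cells. With all 415 sites, control-F1 lines 29, 37, 44 and 45 had 6.52%, 7.05%, 10.1% and 9.52%, and ICSI-F1 lines 11, 17, 20 and 21 had 6.53%, 7.17%, 9.54% and 9.28%. The group means were 8.30% ± 1.78 and 8.13% ± 1.5 (SD, n = 4), a difference of −0.175 percentage points that is smaller than the spread between lines. Outside cut sites they were 3.60% ± 1.55 and 3.33% ± 1.42. The difference was 0.0623 points within library set 1 and −0.411 points within library set 2. By cluster, the difference with all sites was −0.0663 points for *Hoxa*, 0.363 for *Hoxb*, 0.0305 for *Hoxc* and −0.742 for *Hoxd*, each below the SD of its groups, which includes the shift between library sets. For *Hoxd* the means were 7.62% ± 2.00 and 6.88% ± 1.46, and the ICSI-F1 mean was lower within both library sets, by −0.310 and −1.17 points. In set 1 the lines overlapped, with 6.15% in ICSI-F1 line 17 and 5.28% in control-F1 line 29. In set 2 they did not. The SD of *Hoxd* among lines of the same group and library set was 0.645 points, below its difference, while for *Hoxa*, *Hoxb* and *Hoxc* this SD was 0.633, 0.756 and 1.46 points, above theirs. Outside cut sites the differences were −0.0904 points for *Hoxa*, 0.164 for *Hoxb*, 0.165 for *Hoxc* and −0.882 for *Hoxd*. The cluster means were not tested.

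The study called a change where group means differed by more than 20 percentage points and dropped sites with a reversed change in any sample. No Hox site met this rule as applied here, with reversed read as an ICSI-F1 line on the opposite side of the control-F1 mean, a reading that the study does not spell out. Of all promoter sites, 0.324% met it, 0.274% with higher and 0.0506% with lower methylation after ICSI. At a threshold of 10 points the count for Hox sites was also 0 in both directions. Of the 415 sites, 369 differed by 5 points or less and 4 by more than 10 points. Each of these 4 had an ICSI-F1 line on the opposite side of the control-F1 mean. Shares of all promoter sites are not given for these counts, so they describe Hox sites only. The largest decrease was at the *Hoxb7* cut-site cytosine chr11:96286314 (plus strand), which had 73.2% ± 18.2 in control-F1 lines against 61.1% ± 18.7 in ICSI-F1 lines, and the largest increase at the *Hoxb13* cut-site cytosine chr11:96194272 (plus strand), with 14.0% ± 16.2 and 24.9% ± 19.4. The other decreases among the 4 largest were at *Hoxc10* chr15:102965905, described above, and at *Hoxd10* chr2:74691803 and chr2:74691091 (both minus strand), by 8.81 and 8.69 points. The other increases among the 4 largest were 10.1 points at *Hoxa11* chr6:52246104 (plus strand), 9.92 points at *Hoxd1* chr2:74762976 (plus strand) and 9.66 points at *Hoxd12* chr2:74674844 (minus strand). Of these 8 cytosines, 5 lay in cut sites. At the *Hoxd12* cytosine, the ICSI-F1 lines had 12%, 7.35%, 17.5% and 8.70%, all above the control-F1 lines with 0%, 4.35%, 0% and 2.56%. In all, 7 of 415 Hox sites (1.69%) had groups that did not overlap, beside 1.11% of all promoter sites.

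**Figure D4:**
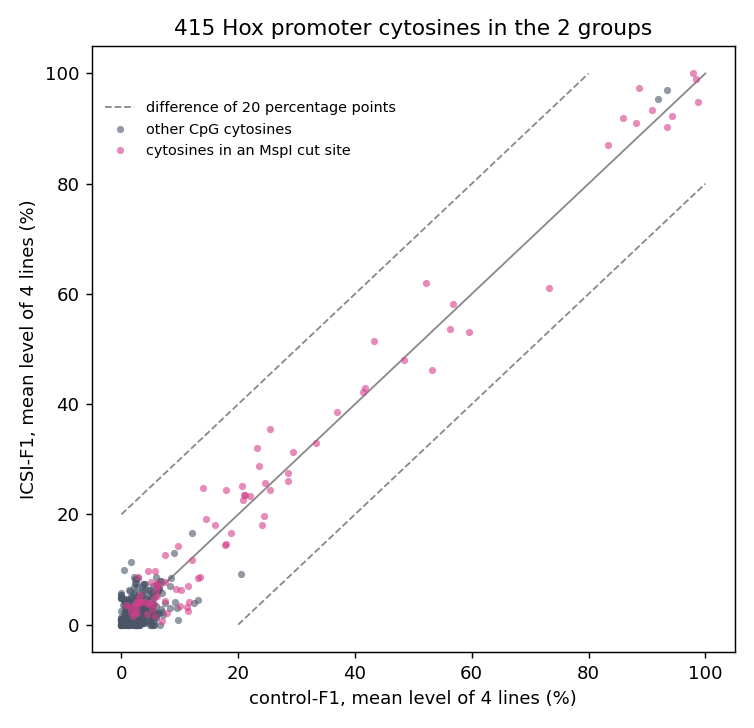
Mean level of the 4 ICSI-F1 lines against that of the 4 control-F1 lines (percent) for each of the 415 Hox promoter cytosines, with cut-site cytosines in pink; the solid line marks equal levels and dashed lines a difference of 20 percentage points. Every point lies between the dashed lines, and differences range from −12 to 10.9 points.

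A quasi-binomial model of methylated and unmethylated reads, with the dispersion of each site moderated across sites by limma, gave 0 of 408 Hox sites that varied at a false discovery rate of 0.05 (0.0% of all 196818 sites that varied). The smallest adjusted p among Hox sites was 0.702. At an unadjusted p under 0.05, 27 Hox sites (6.62%) passed, 5 higher and 22 lower in ICSI-F1 lines, against 7.06% of all sites (5108 higher and 8793 lower). With library set as a covariate, 55 Hox sites (13.5%) passed unadjusted, against 15.4% of all sites, and 0 at a false discovery rate of 0.05. With the dispersion of each site alone, 0 Hox sites passed at a false discovery rate of 0.05. That version recovered 0% of simulated sites raised by 60 points, so its 0 cannot decide whether Hox sites changed. Among promoters, limma on the mean level gave 0 of 15 Hox promoters at a false discovery rate of 0.05 (0.0% of all 9224), with adjusted p = 1 for each of the 15 Hox promoters, and 0 at an unadjusted p under 0.05 (2.56% of all promoters). With library set as a covariate, limma again gave 0 of 15 at either threshold, where 4.73% of all promoters passed unadjusted. With all sites, 0 of 15 Hox promoters had groups that did not overlap (1.46% of all promoters). The differences of *Hoxd12* (−1.67 points, SE 1.57), *Hoxd10* (−1.36, SE 1.31), *Hoxb1* (−1.30, SE 3.99), *Hoxa2* (−1.04, SE 2.09) and *Hoxd13* (0.626, SE 1.85) were near or below their SE, and that of *Hoxb3* (3.98, SE 2.02) was the largest. In simulated data on 9224 promoters, the promoter test recovered 86% of 50 promoters raised by 20 points. For single sites the recovery was 50% at 20 points and 86% at 30 points. Changes of these sizes or smaller at single Hox sites could thus be missed at this depth and number of lines. Only sites with at least 30 scaled reads in every line were raised, and recovery at lower depth was not simulated. The simulations held no shift between library sets, and the promoter simulation gave the promoters with the lowest levels the smallest spreads.

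The lines differed more by library set than by group. Over all Hox sites, the 4 set 2 lines had 9.28% to 10.1% and the 4 set 1 lines 6.52% to 7.17%, with no overlap and a difference of 2.80 points. Over the other promoters the same difference was 2.27 points. Every set 2 line lay above every set 1 line in 7 of 15 Hox promoters with all sites (27.7% of all promoters), and in 5 of 14 outside cut sites (23.7% of all promoters). The mean of set 2 was higher in 13 of 15 Hox promoters with all sites (89.8% of all promoters) and in 14 of 14 outside cut sites (90.7%). The library sets have 2 lines of each group, and what differed between them other than the wording of the labels was not tested.

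**Figure D5:**
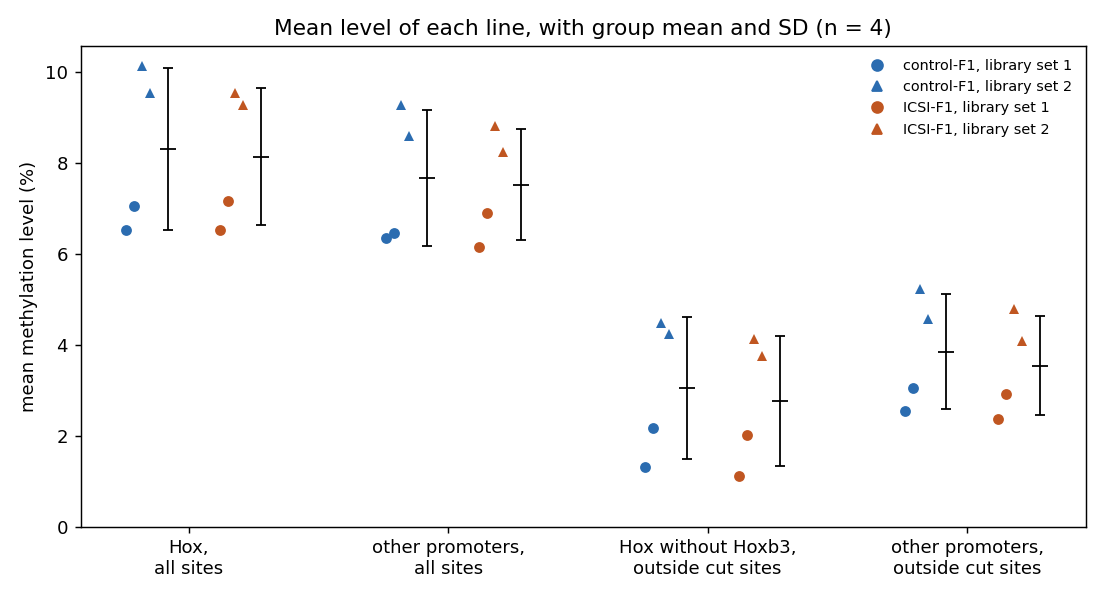
Mean methylation level of each line (percent) over Hox sites and over all other promoter sites, with all sites and outside cut sites (there without *Hoxb3* on the Hox side), by group (colour) and library set (symbol); black marks give the group mean and SD (n = 4). In each of the 4 columns the set 2 lines (triangles) lie above the set 1 lines (circles), while the group means differ by less than 1 SD.

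Set beside other promoters of like annotation, Hox islands were slightly higher over sites but not with each promoter counted once. Cut-site cytosines made up 56 of the 300 Hox island sites and 21843 of the 155842 other island sites. The island sites of Hox promoters had 6.05%, and those of other promoters 4.93%, a difference of 1.12 ± 0.428 points (SD over 8 lines) that was positive in 8 of 8 lines. Outside cut sites it was 0.398 ± 0.390 points, positive in 7 lines. With each promoter counted once the difference with all sites was −0.135 points, positive in 2 lines. Over all annotation classes and outside cut sites, Hox sites differed from other promoters by −0.227 ± 0.351 points. They were lower in 6 lines and higher in 2. With *Hoxb3* left out, on the Hox side only, Hox sites were lower in 8 of 8 lines, by 0.792 ± 0.358 points. This exclusion was chosen after the levels were seen, and the other promoters kept their highly methylated members.

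The regulators and relatives of Hox genes were likewise low and gave no group call. Of the genes that hold Hox clusters off or on, the Polycomb and Trithorax list, 29 of 41 were in the table and had a median promoter level of 2.26% outside cut sites (28 promoters with such sites), with 0 higher and 0 lower by limma at a false discovery rate of 0.05 and 0 at an unadjusted p under 0.05. Its promoters with the highest means over all sites were *Ash2l*, a subunit of histone H3 methyltransferase complexes (27.3%, but 3.18% outside cut sites), and *Eed*, a Polycomb core subunit (11.1% and 3.49%). Of the TALE cofactors that bind DNA with Hox proteins, 5 of 9 were in the table, with a median of 3.88% outside cut sites (4 promoters with such sites) and 0 calls. *Meis2* (13.9%, and 3.86% outside cut sites) and *Meis1* (5.84% and 2.17%) had the highest means. Of the ParaHox and Cdx list, homeobox genes related to the clusters, 8 of 11 were present with a median of 2.61% outside cut sites and 0 calls, led by *Gsx2* (18.5%, and 2.27% outside cut sites) and *En2* (9.65% and 1.56%). Of the genes in or beside the clusters, 9 of 35 were present with a median of 2.66% and 0 calls. *Smug1*, a DNA repair glycosylase gene beside *Hoxc*, was the 1 of these 9 at 50% or more, with 90.3% ± 7.46 among control-F1 lines and 90.9% ± 3.76 among ICSI-F1 lines (SD, n = 4) over 3 sites. Only 1 of these sites lay outside cut sites, with 91.7% ± 9.93 and 88.1% ± 7.82 in the same order. *Gm53* was next with 16.1%, and 3.42% outside cut sites. The germline genes had a median of 3.75% outside cut sites and 0 calls, 1 of 12 at an unadjusted p under 0.05 (2.56% of all promoters), led by *Sycp1* (9.09%) and *Slc25a31* (8.85%) over all sites.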

How the data were processed

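DNA of 8 mouse GS cell lines was digested with MspI and sequenced as paired reads of 150 bp after bisulfite treatment (Zymo-Seq RRBS kit). The authors trimmed reads with Trim Galore 0.5.0 in RRBS non-directional mode, aligned them to mm10 with Bismark 0.20.0 and counted with methylKit (1.16.0 per the labels). They scaled coverage between lines, dropped sites under 10 reads or above the 99.9th percentile, and joined sites present in all lines, strands apart. The values are a score of scaled, rounded reads (methylated and unmethylated) that the authors deposited for cytosines within 1 kb upstream of Ensembl 87 genes; group comparison columns were not used. Digestion leaves overhangs that are filled in with new bases, and the part of this in the cut-site levels was not tested.

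Here, levels were 100 times methylated reads divided by all reads, averaged per site, promoter, cluster and line. Unscaled reads were recovered as scaled values divided by 1 factor per line, with 100% of values matching to the nearest digit shown (99.98% in line 17). Tests were the 20-point rule, the moderated quasi-binomial model over 196818 sites, limma 3.58.1 over 9224 promoters (Benjamini-Hochberg) and exact permutation of single promoters (R, Python 3.11.15, tested on simulated data). Cut sites were CCGG in GRCm38. Members, gene lists and tests were chosen with earlier results of these data known. Named were Hox promoters past a rule or false discovery rate of 0.05, the highest and lowest per cluster, the 6 largest differences and 4 largest SDs, the 10 highest sites and 4 largest differences in each direction, and 2 genes per other list. Alternatives were other coverage minimums (20 and 30 reads), summed strands, pooled reads, single library sets, library set as a covariate, other thresholds and leaving out each line. Those without cut-site cytosines or *Hoxb3* were added after seeing the data. A change of sign in an uncalled difference of a promoter, cluster or the Hox mean was counted as a reversal only when it moved by more than the SD within groups.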

Additional observations from a re-analysis of the deposited data

Results flagged for a closer look

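In 9 of 104 groups of 4 lines examined, 1 line lay farther from its nearest neighbour than Dixon's 95% critical value allows. Chance gives about 1 in 20 for a single group, but the 104 were not independent. The same promoters were examined with all sites and outside cut sites, and *Hoxb7* and *Hoxd13* were flagged both ways. Each group also held 2 lines of each library set, so 1 in 20 is not a reference for the 9.

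*Hoxb7* in ICSI-F1 line 20 had 11.4% with all sites (4.74% to 5.77% in the other ICSI-F1 lines) and 6.26% outside cut sites (0.367% to 0.717%). *Hoxb9* in ICSI-F1 line 21 had 4.65% outside cut sites (0.972% to 1.48% in the others). *Hoxc10* in ICSI-F1 line 21 had 23.0% with all sites (12.8% to 13.7% in the others); at its cytosines outside cut sites 696 to 983 bp upstream, the plus strand had 5.56% to 40% and the minus strand 2.53% to 22.7%. *Hoxd13* in control-F1 line 45 had 11.4% with all sites (2.79% to 3.46% in the others) and 10.3% outside cut sites (0 to 1.46%).

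Among the 10 highest sites, *Hoxa11* at chr6:52246393 had 91.7% in control-F1 line 45 and 100% in the other control-F1 lines. *Hoxa11* at chr6:52246577 had 81.8% in control-F1 line 37 and 97.5% to 100% in the others. *Hoxd10* at chr2:74691145 had 67.9% in control-F1 line 37 and 97.2% to 100% in the others. The cause of these values was not tested.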

How the results depend on the processing

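Of 208 recomputed values of the main comparisons, 197 moved by less than the spread between lines or, for counts, stayed within 1.5 times. The sign was not stable for the small group differences of the Hox and cluster means: it changed in 19 of 80 recomputed values, for the Hox mean within library set 1 (0.0623 points) and in 4 of 8 fits without 1 line, and for *Hoxa*, *Hoxb* and *Hoxc* but not *Hoxd*. The count of Hox sites lower by the 20-point rule was 0 with 8 lines, 1 within library set 1 (*Hoxc10*) and 2 within library set 2 (*Hoxb7*, *Hoxc10*), each with 2 lines a group, where 0.211% and 0.264% of all sites were lower. With strands summed, 7.39% of Hox CpGs lay between 20% and 50% and 3.11% at 50% or more. Without cut-site cytosines, a choice made after seeing the data, these shares were 0% and 0.617%, with 98.5% under 10%; without *Hoxb3*, chosen likewise, 3.16% lay at 50% or more. The difference of Hox islands from other islands was 0.398 points without cut sites and −0.135 points as a mean over promoters. Over sites of any annotation, Hox sites were 0.629 points above other promoter sites. Of 224 recomputed differences of single promoters, 217 moved by less than the SD within groups with no change of call, although 54 changed sign; the difference of *Hoxb1*, with 1 CpG, turned to 2.28 points within library set 1.

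Leaving out 1 line at a time, the difference of the Hox mean ranged from −0.768 to 0.430 points, and those of the clusters from −0.681 to 0.441 (*Hoxa*), −0.315 to 1.21 (*Hoxb*), −1.12 to 0.900 (*Hoxc*) and −1.52 to −0.0874 (*Hoxd*). *Hoxb3* ranged from 2.41 to 5.24 points, the highest without control-F1 line 37, and *Hoxd13* reached 2.68 points without control-F1 line 45. In both cases the groups then did not overlap (exact permutation p = 0.0286, the smallest possible). No paired analysis was possible because the groups share no line numbers. Depth of about 37 to 81 reads limits single sites, and *Hoxb1*, *Hoxb3* and *Hoxa2* rest on 2 to 4 sites. The causes were not tested.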
